A study of Homo sapiens with 4 samples.

Results

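Extracellular proteolysis genes were followed in OVCAR5 cells stably transduced with a hairpin against FOXK2. The genes were the matrix metalloproteinases (MMPs), their tissue inhibitors (TIMPs), the serpins and the plasminogen activators PLAU and PLAT with the receptor PLAUR. They were taken by symbol, and SERPING1 was left out. The symbols found were 65 of the 56655 in the count tables, namely 24 MMPs, 4 TIMPs, 34 serpins and the 3 genes of the plasminogen activator set. Each of the 65 was matched to one gene of the GENCODE v44 annotation of hg38, and coordinates below are from that annotation.

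OVCAR5 is an established human ovarian cancer cell line, labelled high grade serous and derived from ascites. Cells received lentiviral particles with a nontargeting short hairpin RNA (shCtrl, n = 2 libraries) or with one that targets FOXK2, which encodes a forkhead transcription factor (shFOXK2, n = 2 libraries), and both groups were selected with puromycin. Polyadenylated RNA was sequenced and read counts per gene were deposited. The shFOXK2 libraries stand for 1 of the hairpins that the study used, so an effect of the hairpin other than on FOXK2 cannot be told apart from an effect of FOXK2.

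MMPs are zinc-dependent enzymes that cut collagens, other matrix proteins and cell-surface proteins. Most are secreted as inactive precursors, and a smaller set is anchored in the plasma membrane. TIMPs bind and block active MMPs. Plasminogen activators convert plasminogen to plasmin, a serine protease that dissolves fibrin and can activate MMP precursors, and PLAUR holds PLAU at the cell surface. Serpins are mostly suicide inhibitors of serine proteases. In ovarian cancer these enzymes have been studied mainly for their part in invasion and in spread across the peritoneum.

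The comparison is shFOXK2 minus shCtrl throughout. CPM, the level used here, is a count per 1000000 counts of a library whose size was adjusted by TMM, the trimmed mean of M values. Adjusted p-values are from the quasi-likelihood F test of edgeR with Benjamini-Hochberg adjustment over all 16417 genes tested, with a threshold of 0.05. SE is the standard error of a log2 fold change, and ± is the SD of 2 libraries. With 2 libraries against 2, a permutation of the labels cannot go below p = 0.333, so each p-value rests on the variance that the model shares between genes. The libraries were described as biological duplicates, and the p-values measure the spread between these 4 libraries alone.

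The libraries held 14284005 to 21950873 counts, and 3 counts corresponded to 0.134 to 0.211 CPM. FOXK2, the targeted gene, had 1796 and 1499 counts in shCtrl against 1086 and 1084 in shFOXK2. Its log2 fold change was −0.36 (SE 0.25, adjusted p = 0.257), which did not pass the threshold, though both shFOXK2 libraries lay below both controls. The study itself reported less FOXK2 mRNA by qRT-PCR and less protein by Western blot in OVCAR5 cells with its hairpins. Those are measures other than the read counts given here and were not compared with them. Epithelial markers summed to between 4075 and 5444 CPM in every library, and leukocyte markers to at most 0.422 CPM. Of the ovarian serous markers, WT1, SOX17 and ESR1 were at 3 counts or fewer in each library, whereas PAX8 was detected in each, at 156 counts or more. The 7 ovarian markers together stood at 44.9 and 41.9 CPM in shCtrl and at 21.6 and 23 CPM in shFOXK2. Among them MUC16, PAX8 and FOLR1 fell, whereas MECOM rose by 1.61 on the log2 scale (adjusted p = 0.00217).

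Of the 65 genes, 32 had enough counts to be tested and 33 did not. Among the 32, 15 were lower in shFOXK2 (46.9%), 3 were higher (9.38%) and 14 did not pass the threshold. Over all genes tested, 22.7% were lower and 25.7% higher, and 48.4% were called in either direction against 56.2% of the 32. The share lower was thus above the background and the share higher below it. The genes were chosen with earlier results of these data known, so these shares are a description only. A fall of more than 2 on the log2 scale was found for 8 of the 32 (25%) against 5.27% of all genes, and a rise of more than 2 for 1 (3.12%) against 10.5%. The median log2 fold change was −0.97 over the 32 and 0.04 over all genes tested. Both shFOXK2 libraries lay outside the range of the shCtrl libraries for 26 of the 32 (81.2%), close to the 75.4% of all genes. MMP7, MMP13 and SERPIND1 passed the filter on low counts through the shCtrl libraries alone, and 0 passed through the shFOXK2 libraries alone. A bulk measurement cannot tell fewer cells with a transcript from less of it per cell.

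**Figure D1:**
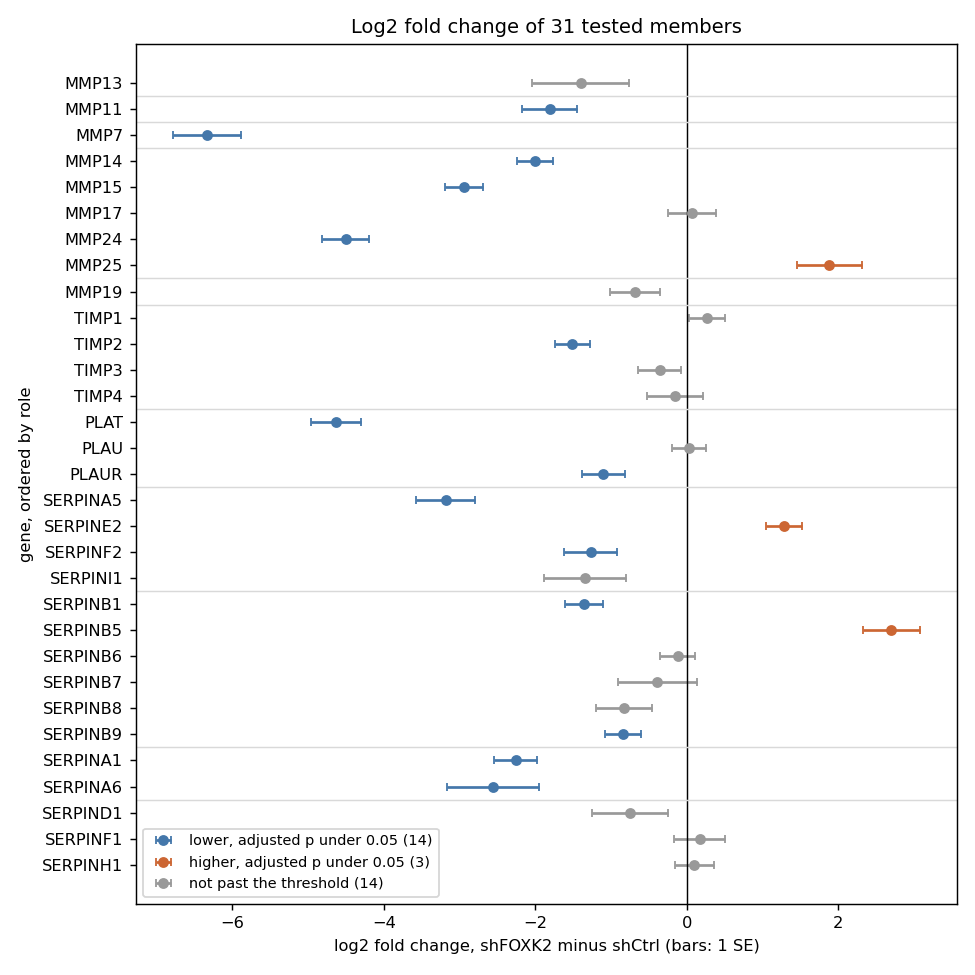
Log2 fold change (shFOXK2 minus shCtrl, x axis) of 31 of the 32 genes tested, ordered by role on the y axis, with bars of 1 SE. The 14 genes shown that were lower at the threshold are blue, the 3 higher are orange and the 14 that did not pass are grey. MMP7 at −6.33, PLAT at −4.63 and MMP24 at −4.50 lie lowest, and SERPINB5 is highest at 2.70.

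Summed over the 65 genes, the level was 3494 and 3979 CPM in the shCtrl libraries against 1758 and 1534 CPM in the shFOXK2 libraries. The MMPs summed to 634 ± 58.9 CPM in shCtrl and 111 ± 4.5 CPM in shFOXK2. Serpins summed to 1258 ± 110 and 893 ± 132 CPM, and TIMPs to 451 ± 34.4 and 291 ± 2.25 CPM. No test was run on these sums. PLAT alone took 27.4% and 27.8% of the total in shCtrl but 1.64% and 3.53% in shFOXK2.

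**Figure D2:**
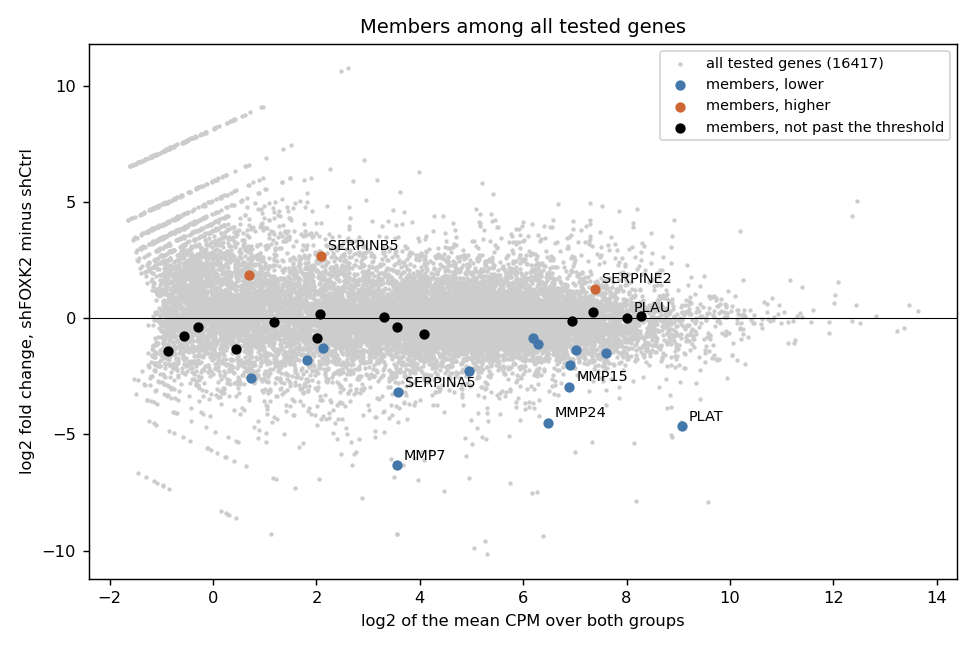
Log2 fold change (y axis) against log2 of the mean CPM over both groups (x axis) for all 16417 genes tested (grey), with 31 MMP, TIMP, serpin and plasminogen activator genes coloured by call. Among the 31, PLAT lies furthest right, at −4.63, and MMP7 is the lowest, at −6.33.

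PLAT, PLAUR and PLAU came apart. PLAT fell steeply and PLAUR fell, while PLAU did not pass the threshold. PLAT (ENSG00000104368.19, chromosome 8, 42174718 to 42207709, minus strand) encodes tissue-type plasminogen activator. It had 21384 and 17758 counts in shCtrl against 409 and 987 in shFOXK2, or 959 and 1106 CPM against 28.8 and 54.2 CPM. The log2 fold change of PLAT was −4.63 (SE 0.33, adjusted p = 7.76e-07), to 4.02% of the control level. Both shFOXK2 libraries lay far below either control.

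PLAU (ENSG00000122861.16, chromosome 10, 73909177 to 73917496, plus strand), the urokinase-type activator, stood at 235 and 274 CPM in shCtrl and at 279 and 239 CPM in shFOXK2. The groups overlapped, and the log2 fold change was 0.03 (SE 0.23, adjusted p = 0.936). PLAUR (ENSG00000011422.12, chromosome 19, 43646095 to 43670547, minus strand), the urokinase receptor, went from 100 and 113 CPM to 63.1 and 36.5 CPM, with a change of −1.10 on the log2 scale (SE = 0.28, adjusted p = 0.00626). Both shFOXK2 libraries were below both controls. The call was lost when 1 library was left out, since without shFOXK2 replicate 2 the log2 fold change of PLAUR was −0.80 (adjusted p = 0.0597). PLAT made up 80.3% and 80.2% of the summed CPM of PLAT and PLAU in shCtrl, against 9.34% and 18.5% in shFOXK2.

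Among the serpins that inhibit plasminogen activators or plasmin, SERPINE2 rose while SERPINA5 and SERPINF2 fell. SERPINE2 (ENSG00000135919.14, chromosome 2, 223975045 to 224039318, minus strand) encodes protease nexin 1, an inhibitor of thrombin, urokinase and other serine proteases. It was at 97.7 and 97.4 CPM in shCtrl and at 271 and 202 CPM in shFOXK2. The rise of SERPINE2 was 1.28 on the log2 scale (SE 0.24, adjusted p = 0.000825), and its groups did not overlap.

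SERPINA5 (ENSG00000188488.14, chromosome 14, 94561442 to 94593118, plus strand) encodes the protein C inhibitor, which also blocks urokinase. It had 424 and 383 counts in shCtrl against 20 and 59 in shFOXK2 (19 and 23.9 CPM against 1.41 and 3.24 CPM), with a change of −3.18 on the log2 scale (SE 0.39, adjusted p = 4.03e-05). Its size moved with one library, to −3.96 without shFOXK2 replicate 2, and its exons overlap those of SERPINA4 on the same strand, which had 1 count at most in a library. SERPINF2 (ENSG00000167711.14, chromosome 17, 1742836 to 1755265, plus strand), the gene of the plasmin inhibitor alpha-2-antiplasmin, went from 5.6 and 6.79 CPM to 2.53 and 2.58 CPM. Its log2 fold change was −1.27 (SE 0.35, adjusted p = 0.00831), but −1.13 (adjusted p = 0.0626) without shCtrl replicate 2.

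SERPINI1, which encodes the neuronal inhibitor of tissue-type activator called neuroserpin, had 61 and 19 counts in shCtrl against 6 and 20 in shFOXK2. The log2 fold change of −1.34 did not pass the threshold (SE 0.54, adjusted p = 0.0536). It did with the replicate number as a block (adjusted p = 0.0491), with DESeq2 size factors (0.0397) and with no filter (0.00592). It also did with a block that crosses the replicate numbers (0.0316) and with an offset for the A content of transcripts (0.00952). With library size alone (0.109) and with the DESeq2 Wald test (0.147) it did not. Leaving out 1 library at a time moved the SERPINI1 value between −2.27 (adjusted p = 0.0011, without shFOXK2 replicate 2) and −0.64 (adjusted p = 0.449, without shCtrl replicate 1). SERPINB2, the gene of the inhibitor PAI-2, was at 4 and 3 counts in shCtrl and 0 in each shFOXK2 library, too few to test.

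Endothelial cells are known to make PLAT. Of 4 markers of that cell type, PECAM1 and CDH5 were also lower in shFOXK2. In shCtrl their means were 6.25 and 2.73 CPM, beside 1032 CPM for PLAT. The 4 endothelial markers, all 4 with a count in some library, summed to 10.6 and 7.72 CPM in shCtrl and to 0.633 and 2.03 CPM in shFOXK2. PECAM1 had 154 and 90 counts against 9 and 29, and CDH5 had 76 and 33 against 0 in each shFOXK2 library. VWF had at most 7 counts and KDR at most 1, near 0 in both groups. The part of endothelial transcripts in the fall of PLAT was not tested.

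Levels of different genes were compared per kilobase of exon. PLAT ranked first in shCtrl at 133 ± 13.4 CPM per kilobase, and among the genes shown TIMP1 came next at 102 ± 22.8 and then PLAU at 86.3 ± 9.22. The libraries of PLAT (123 and 142) lay above those of TIMP1 (85.5 and 118), and those of TIMP1 and PLAU overlapped. In shFOXK2 the order began with TIMP1 at 123 ± 6.82, PLAU at 87.9 ± 9.5, SERPINH1 at 51.1 ± 14.5 and SERPINE2 at 26.4 ± 5.46, and PLAT was at 5.34 ± 2.32. No neighbours among these first 4 overlapped in shFOXK2. The order depends on the length used, since with the length of the canonical transcript SERPINH1 came before PLAU in both groups.

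The ratio of PLAT to PLAU, a level per kilobase over a level per kilobase, was 1.55 and 1.53 in shCtrl against 0.0391 and 0.0859 in shFOXK2. That of PLAU to PLAUR was 3.54 and 3.67 in shCtrl against 6.69 and 9.91 in shFOXK2. The groups lay apart in both ratios, and neither was tested.

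**Figure D3:**
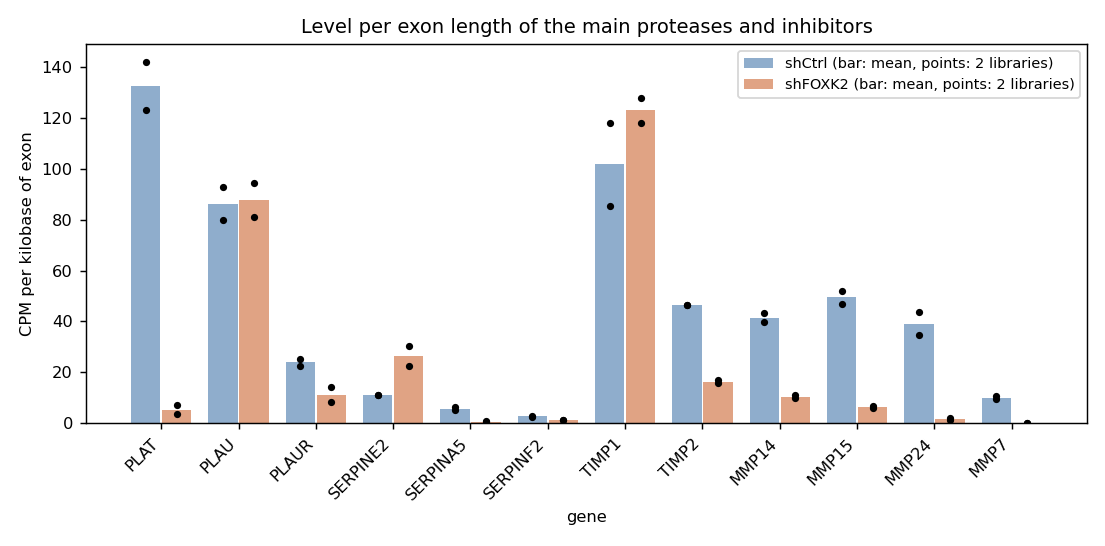
Level per exon length (CPM per kilobase of exon, y axis from 0) of 12 proteases, inhibitors and the receptor, with bars for the mean and points for the 2 libraries of shCtrl (blue) and shFOXK2 (orange). PLAT and TIMP1 are the tallest shCtrl bars, at 133 and 102, and in shFOXK2 TIMP1 and PLAU are, at 123 and 87.9.

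The MMP transcripts of OVCAR5 were mostly those of membrane-anchored enzymes. MMP14, MMP15 and MMP24 made up 90% and 90.4% of the summed MMP level in shCtrl and 76% and 72.9% in shFOXK2, and each of them fell. MMP14 (ENSG00000157227.14, chromosome 14, 22836560 to 22849041, plus strand), a collagenase of the cell surface and the activator of the MMP2 precursor, was at 183 and 200 CPM in shCtrl and at 50.6 and 45.4 CPM in shFOXK2. Its level fell 3.99-fold, to 25% of control (SE of the log2 fold change 0.24, adjusted p = 3.36e-05). MMP15 (ENSG00000102996.5, chromosome 16, 58025754 to 58046901, plus strand), also a transmembrane MMP, went from 199 and 220 CPM to 25.7 and 29 CPM, a change of −2.94 on the log2 scale (SE 0.25, adjusted p = 2.73e-06). In both genes the spread within a group was small beside the gap between groups.

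MMP24 (ENSG00000125966.10, chromosome 20, 35226690 to 35276998, plus strand) is another transmembrane MMP. It had 3364 and 3056 counts in shCtrl against 84 and 166 in shFOXK2 (151 and 190 CPM against 5.91 and 9.12 CPM), a change of −4.50 on the log2 scale (SE 0.31, adjusted p = 6.09e-07). Exons of MMP24OS overlap it on the opposite strand, and how the counting used strand is not given in the sources used here. MMP24OS had 2276 and 1955 counts in shCtrl against 618 and 1077 in shFOXK2, with a log2 fold change of −1.12 (adjusted p = 0.00294), so reads of this pair of genes cannot be told apart with certainty.

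The other membrane-anchored MMPs were less abundant. MMP25, a protease held by a glycolipid anchor and known from leukocytes, was at 13 and 13 counts in shCtrl against 35 and 48 in shFOXK2. It rose by 1.88 on the log2 scale (SE 0.43, adjusted p = 0.00276). Exons of MMP25-AS1 overlap it on the opposite strand, and that gene rose by 1.42 (adjusted p = 0.00191). MMP17, which has the same kind of anchor, stood at 8.61 and 10.8 CPM in shCtrl and at 12.3 and 8.08 CPM in shFOXK2 (log2 fold change 0.07, SE 0.32, adjusted p = 0.877). MMP16 had at most 2 counts.

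The steepest fall was that of MMP7 (ENSG00000137673.9, chromosome 11, 102520508 to 102530750, minus strand), which encodes matrilysin, a small secreted MMP typical of epithelial cells. MMP7 had 488 and 392 counts in shCtrl against 6 and 3 in shFOXK2, or 21.9 and 24.4 CPM against 0.422 and 0.165 CPM. The log2 fold change was −6.33 (SE 0.45, adjusted p = 7.61e-07). The summed counts of shFOXK2 came to 1.21% of those of shCtrl after scaling (95% interval 0.551% to 2.31%, counting error only), so the size is less certain than the direction. Without shFOXK2 replicate 1 it was −7.08 and without shFOXK2 replicate 2 it was −5.79. Of 6 epithelial markers, CDH1 (459 and 260 counts against 13 and 24) also fell, by 4.02 on the log2 scale (adjusted p = 5.12e-06), whereas EPCAM, KRT7, KRT8, KRT18 and KRT19 did not pass the threshold, and their part in the change of MMP7 was not tested.

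MMP11, the gene of stromelysin 3, was at 5.56 and 5.48 CPM in shCtrl and at 1.55 and 1.59 CPM in shFOXK2, with a change of −1.81 on the log2 scale (SE 0.36, adjusted p = 0.0012). MMP19 was at 20.3 and 21.2 CPM in shCtrl and at 8.58 and 17.2 CPM in shFOXK2 (log2 fold change −0.68, SE 0.33, adjusted p = 0.108). The shFOXK2 libraries of MMP19 differed from each other more than the higher of them did from the controls, and the value was −1.31 (adjusted p = 0.00531) without shFOXK2 replicate 2. MMP13, a collagenase, had 18 and 13 counts in shCtrl against 1 and 9 in shFOXK2 (log2 fold change −1.40, adjusted p = 0.0865). The MMP13 value was −3.43 (adjusted p = 0.00844) without shFOXK2 replicate 2 and −0.70 (adjusted p = 0.409) without shFOXK2 replicate 1, and it passed the threshold with no filter (adjusted p = 0.0486) and with the offset for A content (adjusted p = 0.029). Of the 24 MMPs 9 were tested, with 5 lower (55.6%, against 22.7% of all genes) and 1 higher (11.1%, against 25.7%).

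The remaining MMPs were at or near the limit of this depth. The gelatinase MMP9 had 13 and 7 counts in shCtrl against 2 and 1 in shFOXK2, and MMP2, the other gelatinase, had 1 count in all. MMP28 reached 12 counts, MMP20 5, MMP21 4, MMP23B 3, MMP1 2, and MMP3, MMP8 and MMP10 had 1 in any library. MMP12, MMP23A, MMP26 and MMP27 had 0 in every library, which allows a level of up to 0.134 to 0.211 CPM. MMP23A, annotated as an unprocessed pseudogene, and MMP23B are near-identical copies, and reads that fit both may have been dropped or split.

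**Figure D4:**
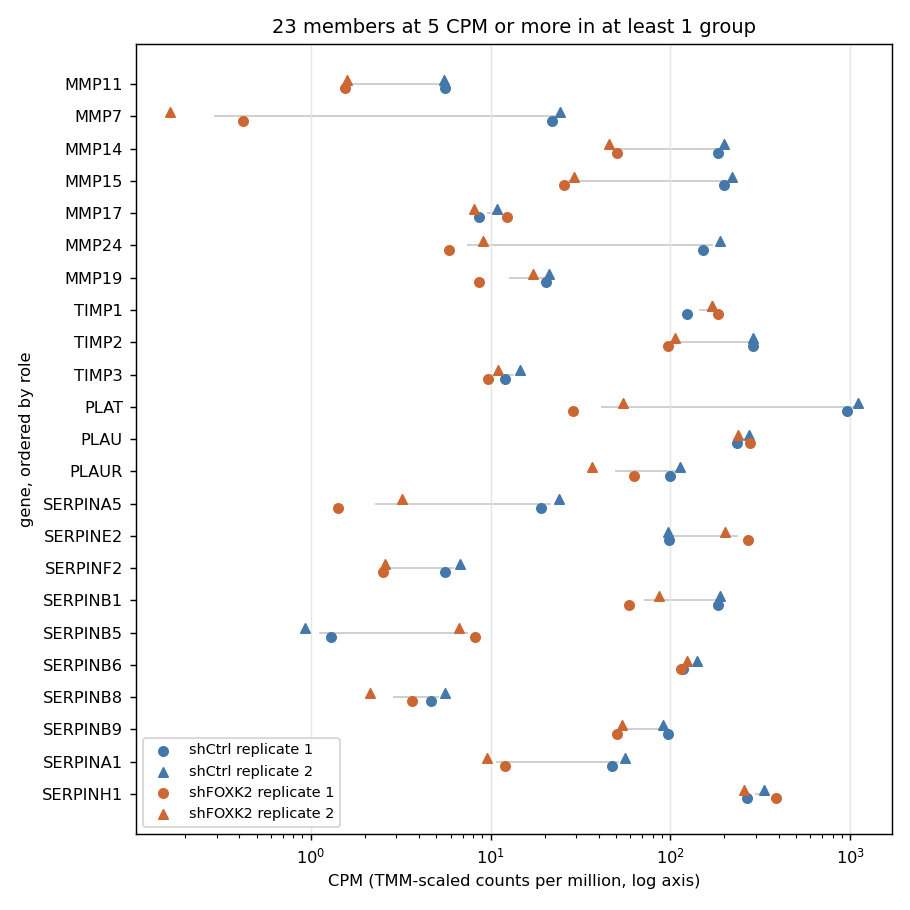
TMM-scaled CPM (log x axis) in each library for 23 genes with a mean of at least 5 CPM in 1 group or both, ordered by role on the y axis. Blue marks are shCtrl, orange marks are shFOXK2, circles are replicate 1, triangles are replicate 2, and the grey line joins the group means. PLAT, MMP7, MMP24 and SERPINA5 have the widest gaps, and MMP17, PLAU, SERPINB6 and SERPINH1 have groups that overlap.

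Of the 4 TIMPs, 1 was lower (25%, near the 22.7% of all genes tested). TIMP2 (ENSG00000035862.13, chromosome 17, 78852977 to 78925387, minus strand), which besides inhibiting MMPs takes part with MMP14 in activating MMP2, was at 289 and 288 CPM in shCtrl and at 96.8 and 106 CPM in shFOXK2. Its log2 fold change was −1.51 (SE 0.23, adjusted p = 0.000177). TIMP1 (ENSG00000102265.12, chromosome X, 47582408 to 47586789, plus strand), a secreted inhibitor of most MMPs, was at 124 and 170 CPM in shCtrl and at 184 and 171 CPM in shFOXK2 (log2 fold change 0.27, SE 0.24, adjusted p = 0.374). The difference did not pass the threshold, and it did, at 0.63 (adjusted p = 0.0139), with an offset on the A content of transcripts, which moved the median of all genes by 0.26.

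TIMP3, an inhibitor that binds to the matrix, was at 12.1 and 14.6 CPM in shCtrl and at 9.7 and 11 CPM in shFOXK2 (log2 fold change −0.36, SE 0.29, adjusted p = 0.33). TIMP4 had 52 and 39 counts in shCtrl against 30 and 39 in shFOXK2 (log2 fold change −0.16, adjusted p = 0.747). As a share of the summed TIMP CPM, not adjusted for length, TIMP1 made up 29% and 35.8% in shCtrl and 62.9% and 58.8% in shFOXK2. Per kilobase TIMP1 was above TIMP2 in every library, with a ratio of 1.84 and 2.54 in shCtrl and 8.18 and 6.89 in shFOXK2. The ratio of MMP14 to TIMP2 per kilobase was 0.851 and 0.933 in shCtrl and 0.702 and 0.574 in shFOXK2, as both genes fell.

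Most other clade B serpins act inside the cell. SERPINB1, an inhibitor of neutrophil serine proteases, was at 184 and 189 CPM in shCtrl and at 58.8 and 86.1 CPM in shFOXK2, with a change of −1.36 on the log2 scale (SE 0.25, adjusted p = 0.000734). SERPINB9, the inhibitor of granzyme B, went from 96.8 and 91.3 CPM to 50.7 and 54.1 CPM, a change of −0.84 on the log2 scale (SE 0.24, adjusted p = 0.0107). The call for SERPINB9 was lost without shFOXK2 replicate 1 (−0.80, adjusted p = 0.0611). SERPINB6, their neighbour on chromosome 6, stood at 117 and 140 CPM in shCtrl and at 114 and 123 CPM in shFOXK2 (log2 fold change −0.12, SE 0.23, adjusted p = 0.702).

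SERPINB5 (ENSG00000206075.14, chromosome 18, 63476958 to 63505085, plus strand), which encodes maspin, a serpin with no known inhibitory action on proteases, had the largest rise. It had 29 and 15 counts in shCtrl against 116 and 121 in shFOXK2, or 1.3 and 0.934 CPM against 8.15 and 6.65 CPM. The log2 fold change was 2.70 (SE 0.38, adjusted p = 0.000105), and the 2 groups were well apart. SERPINB8 was at 4.66 and 5.61 CPM in shCtrl and at 3.66 and 2.14 CPM in shFOXK2 (log2 fold change −0.83, SE 0.37, adjusted p = 0.0814). SERPINB7 had 15 and 19 counts in shCtrl against 13 and 9 in shFOXK2 (log2 fold change −0.39, adjusted p = 0.557). SERPINB3 and SERPINB4, which are near-identical copies, had at most 3 counts, and SERPINB10, SERPINB11, SERPINB12 and SERPINB13 had 0.

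Of the remaining clade A serpins, which are mainly known as plasma proteins made in liver, 2 were tested. Both were lower, against 22.7% of all genes tested. SERPINA1 (ENSG00000197249.14, chromosome 14, 94376747 to 94390693, minus strand), the gene of alpha-1-antitrypsin, was at 47.2 and 55.6 CPM in shCtrl and at 12 and 9.5 CPM in shFOXK2. Its log2 fold change was −2.26 (SE 0.28, adjusted p = 3.99e-05). SERPINA6, which encodes the cortisol carrier of plasma, had 53 and 54 counts in shCtrl against 1 and 15 in shFOXK2 (log2 fold change −2.56, SE 0.61, adjusted p = 0.00364). The size of the SERPINA6 change turned on one library, being −5.24 without shFOXK2 replicate 2 and −1.78 without shFOXK2 replicate 1. SERPINA3 had 12 and 7 counts in shCtrl against 0 and 1 in shFOXK2, too few to test, SERPINA10 had at most 4, and SERPINA4 and SERPINA12 at most 1. SERPINA2, SERPINA7, SERPINA9 and SERPINA11 had 0 in every library.

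The remaining serpins did not pass the threshold. SERPINH1, which encodes the collagen chaperone HSP47 and does not inhibit proteases, was at 266 and 331 CPM in shCtrl and at 385 and 256 CPM in shFOXK2 (log2 fold change 0.10, SE 0.26, adjusted p = 0.766). SERPINF1, the gene of the antiangiogenic factor PEDF, had 92 and 60 counts in shCtrl against 68 and 75 in shFOXK2 (log2 fold change 0.17, adjusted p = 0.698). SERPIND1, the gene of heparin cofactor 2, had 17 and 15 counts against 8 and 8 (log2 fold change −0.75, adjusted p = 0.23). SERPINC1, the gene of antithrombin, had at most 4 counts, SERPINE3 at most 5 and SERPINI2 0.

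Other genes of pericellular proteolysis came from 6 lists of 90 genes, of which 71 were tested, with 30 lower (42.3%) and 9 higher (12.7%), against 22.7% and 25.7% of all genes tested. Their median log2 fold change was −0.59, against 0.04 over all genes tested. These lists too were chosen with earlier results of these data known. In the list of 15 genes of plasminogen activation and coagulation, 4 of 13 tested were lower (30.8%) and 2 higher (15.4%). These shares are over few genes, and the share lower was not far from the 22.7% of all genes. The 2 higher were F3 and F2R, from the coagulation part of the list. LRP1, the endocytic receptor that clears activator and inhibitor complexes, went from 187 and 158 CPM to 22.2 and 25.1 CPM (log2 fold change −2.87, adjusted p = 3.89e-06). F3, the gene of tissue factor, rose by 0.96 (adjusted p = 0.0101) and F2R, a thrombin receptor, by 0.67 (adjusted p = 0.0354). PLG, the gene of plasminogen itself, had at most 3 counts in a library.

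In the list of MMP regulators, 5 of 13 tested genes were lower (38.5%, against 22.7% of all genes) and 3 higher (23.1%, near the 25.7%). PCSK6, a proprotein convertase, went from 69.7 and 71 CPM to 16.3 and 10.2 CPM (log2 fold change −2.41, adjusted p = 3.59e-05). Of the other convertases in the list, FURIN also fell (−0.99, adjusted p = 0.00294). PCSK5 rose by 2.55 (adjusted p = 8.78e-05), from a mean of 2.13 CPM to 12.6 CPM. CAV1, the gene of caveolin 1, was at 160 and 144 CPM in shCtrl and at 476 and 821 CPM in shFOXK2 (log2 fold change 2.09, adjusted p = 7.48e-05). Of the list of membrane and secreted serine proteases with their inhibitors, 15 were tested. Lower were 8 (53.3%, against 22.7% of all genes) and higher was 1 (6.67%, against 25.7%). ST14, the gene of matriptase, had a log2 fold change of −3.12 (adjusted p = 3.37e-05), and SPINT1, its Kunitz inhibitor, went from 303 and 327 CPM to 8.23 and 7.58 CPM (log2 fold change −5.32, adjusted p = 1.9e-07). The gene that rose was PRSS21, a glycolipid-anchored serine protease, by 2.08 (adjusted p = 4.89e-05).

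Among the ADAM and ADAMTS metalloproteases, 3 of 10 tested were lower and 2 higher (30% and 20%, close to the 22.7% and 25.7% of all genes). The log2 fold changes of those lower were −2.07 for ADAM17 (adjusted p = 6.97e-05), −1.55 for ADAM8 (0.000737) and −0.89 for ADAM9 (0.023). Those of the higher were 1.59 for ADAMTS6 (adjusted p = 0.0223) and 0.66 for ADAMTS15 (0.0454). In the list of cathepsins, legumain and cystatins 7 of 16 tested were lower (43.8%, against 22.7%), and the highest log2 fold change was 0.36. In the small list of secreted inhibitors 3 of 4 tested were lower (75%, against 22.7% of all genes) and 1 higher (25%, near the 25.7%), shares over few genes. WFDC2, which encodes the ovarian tumor marker HE4, went from 97 and 118 CPM to 6.96 and 10.7 CPM (log2 fold change −3.61, adjusted p = 2.45e-06).

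Many of these genes lie in clusters, which the choice by symbol did not use. The chromosome 11 cluster from 102520508 to 102955732 holds 9 MMPs, of which MMP7 and MMP13 were tested. The 11 other genes tested within 2 Mb had a median log2 fold change of −0.77, with 6 lower and 1 higher. The chromosome 14 cluster from 94280460 to 94624055 holds 10 clade A serpins. The 3 tested had a median of −2.56, and the 29 other genes within 2 Mb had a median of 0.14, with 6 lower and 6 higher. In the chromosome 18 cluster of 10 clade B serpins, the 3 tested had a median of −0.39 and SERPINB5 rose, while the 8 neighbours tested had a median of −0.00. Around PLAT 17 neighbours had a median of 0.24 and around MMP24 57 neighbours one of −0.84. Around MMP24 34 of 57 neighbours were lower and around PLAT 1 of 17, against 22.7% of all genes tested. For other genes that fell, it was 19 of 41 around MMP15, 28 of 76 around MMP14, 21 of 87 around PLAUR and 6 of 25 around MMP11. It was 13 of 35 around TIMP2, 20 of 48 around SERPINF2 with SERPINF1, and 8 of 21 around SERPINB1, SERPINB9 and SERPINB6. The part of position in these falls was not tested.

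Promoter sequences were read from RefSeq (GRCh38.p14) for 44 of the 65 genes, 23 of them tested. The 250 bases before the start were searched on both strands for the AP-1 motif TGANTCA, which reads the same on both strands, the forkhead motif TGTTTAC, the NF-kB motif GGGNNTTCC and the ETS motif AGGAAG. The letters of the NF-kB and ETS motifs can overlap, but no match shares bases with another in the windows shown. AP-1 is the factor best known for MMP and plasminogen activator promoters, and the forkhead letters are those given for FOXK2. Matches were found in 4 of the 23 for AP-1, 1 for forkhead, 1 for NF-kB and 9 for ETS. Of 35116 promoters, 6.57% held the AP-1 letters, 2.98% the forkhead letters, 5.78% the NF-kB letters and 28.7% the ETS letters. PLAT, MMP2, MMP9, MMP13, MMP17, MMP19, MMP25 and TIMP2 were among the genes without an entry.

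The AP-1 and forkhead matches of tested genes are shown with 11 bases on each side, 5′ to 3′ on the strand of the gene, with the match in capitals, because they occur in genes that fell, rose or did neither. PLAUR and MMP7 fell, SERPINB5 rose and SERPINB8 did not pass the threshold, and the forkhead match is that of SERPINA6, which fell. Distances count from the RefSeq start, which can differ from the GENCODE bounds: the PLAUR match and the SERPINB8 match nearer to the start lie inside the GENCODE spans of those genes.
MMP7 AP-1, 67 bases before the start, chr11:102530797-102530825, minus strand: aaacactcaaaTGAGTCAcctatttccac
PLAUR AP-1, 186 bases before the start, chr19:43670338-43670366, minus strand: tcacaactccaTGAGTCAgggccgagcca
SERPINB5 AP-1, 146 bases before the start, chr18:63476801-63476829, plus strand: taacttcagccTGAATCAtttctttcaat
SERPINB8 AP-1, 185 bases before the start, chr18:63969885-63969913, plus strand: ggagtcaaacgTGAATCAacggtgaaaaa
SERPINB8 AP-1, 28 bases before the start, chr18:63970042-63970070, plus strand: tcgaacggttcTGAGTCAtctgccggaag
SERPINA6 forkhead, 150 bases before the start, chr14:94323469-94323497, minus strand: cagcatttctgTGTTTACtcagctatcct

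For the genes with the largest fall and the largest rise, the whole 250 bases before the start are given, with the AP-1 match and the ETS matches (here on the opposite strand, so read as CTTCCT) in capitals. The MMP7 window holds 1 AP-1 and 2 ETS matches and the SERPINB5 window 1 of each. A match is a run of letters and was not tested for binding.
MMP7, chr11:102530748-102530997, minus strand: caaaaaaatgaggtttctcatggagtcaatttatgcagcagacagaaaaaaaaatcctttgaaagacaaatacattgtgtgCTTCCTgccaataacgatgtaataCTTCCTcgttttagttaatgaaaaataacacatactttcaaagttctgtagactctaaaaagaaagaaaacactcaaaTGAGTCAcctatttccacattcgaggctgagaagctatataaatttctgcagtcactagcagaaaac
SERPINB5, chr18:63476708-63476957, plus strand: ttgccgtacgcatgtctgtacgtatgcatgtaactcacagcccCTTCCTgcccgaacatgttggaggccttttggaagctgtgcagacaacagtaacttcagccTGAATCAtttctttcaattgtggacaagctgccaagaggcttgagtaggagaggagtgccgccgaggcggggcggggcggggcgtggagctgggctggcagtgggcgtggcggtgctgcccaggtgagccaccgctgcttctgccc

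Other measures were set beside the groups. The median A content of transcripts was 23.9% for the 15 genes that fell and 26.4% for the 3 that rose. It was 24.3% for all 32 genes of the set tested and 26% for the 13887 genes tested that had a value. Under the offset on A content 17 of the 32 were lower and 4 higher. Fibroblast markers summed to 13.5 to 20.4 CPM over the 4 libraries, with COL1A2 and DCN at 0 in shCtrl and LUM at 5 counts or fewer. COL1A1, the largest part of that sum, was at 14 ± 0.799 CPM in shCtrl and 14.2 ± 2.34 CPM in shFOXK2 (log2 fold change 0.03, adjusted p = 0.951), and PDGFRB was at 127 and 87 counts in shCtrl against 2 and 8 in shFOXK2. The part of these measures in the differences above was not tested.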

How the data were processed

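RNA-seq was compared between 2 shCtrl and 2 shFOXK2 libraries of OVCAR5 cells, grouped and numbered by the sample titles. Per the study's methods and processing notes, the authors aligned single-end reads to hg38 with STAR 2.5.2 and counted reads per gene with HTSeq. They deposited raw counts per gene symbol, 1 table a library. The gene annotation and the strand setting of the counting are not given in the sources used here, and reads that fit more than one place are usually dropped by HTSeq, which lowers counts of near-identical copies.

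Here genes were filtered with filterByExpr of edgeR 4.0.16 (R 4.3.3), which needs about 0.579 CPM in 2 libraries, scaled by TMM and tested with glmQLFit and glmQLFTest, 2-sided, with group as the only term. SE is the absolute log2 fold change over the root of F. Library totals (14284005 to 21950873 counts) set the floor of 3 counts, and intervals and floors cover counting error only. Replicates were separate libraries, with a chi-square statistic of 38.1 per gene in shCtrl and 27.9 in shFOXK2.

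The genes, the roles and the pathway lists were chosen with earlier results of these data known. Of the families, 1 tested gene enters the counts and sums but is not reported here, and the other genes are accounted for. Genes with at least 5 CPM in a group are named with each library's value, and of the pathway lists the 5 largest rises and falls among called genes with at least 20 CPM in a group. PLG, MMP24OS, MMP25-AS1, FURIN, PCSK5, ADAM8, ADAM9, ADAM17, ADAMTS6 and the marker genes were named after their values were seen. The lists for other cell types were set beside the results.

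Alternatives were DESeq2 1.42.0 size factors, library size alone, no filter, at least 10 counts in every library, the DESeq2 Wald test, the replicate number as a block, a lowess offset (span 0.2) on transcript A content, and each library left out in turn. A crossed block was added after seeing the data. The tests were tried on simulated counts. Transcript length and composition came from GENCODE v44, and promoters from RefSeq (GRCh38.p14).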

Additional observations from a re-analysis of the deposited data

How the results depend on the processing

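In the 8 alternatives with all 4 libraries, 237 values stayed on the same side of 0 and of the threshold, 9 newly passed it and 4 reversed, and among the values run no call was lost. The stricter filter, 10 counts or more in each of the 4 libraries, removed MMP7, MMP13, SERPINA6, SERPINB7, SERPIND1 and SERPINI1, so the calls for MMP7 and SERPINA6 were not run there. The count of genes lower ran from 13 (the stricter filter, which tests fewer genes) to 20 (no filter), and the count higher was 3, or 4 with the A-content offset. The number higher by over 2 on the log2 scale was 2 with that offset, because MMP25 reached 2.12, and 1 to 2 with a library left out. The reversed values, none past the threshold, were MMP17 at −0.03 and PLAU at −0.07 with no filter, and TIMP4 at 0.19 and SERPINB6 at 0.21 with the A-content offset, which shifted the median of all genes by 0.26. With no filter that shift was −0.1. With a library left out, the log2 fold changes ran from −0.26 to 0.31 for MMP17, −0.12 to 0.14 for PLAU, −0.29 to 0.02 for SERPINB6, −0.86 to 0.04 for SERPINB7 and −0.22 to 0.33 for SERPINH1. The cause was not tested.

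With 1 library left out, which also lowers the number of libraries, the calls for PLAUR (−1.10 to −0.80 without shFOXK2 replicate 2), SERPINF2 (−1.27 to −1.13 without shCtrl replicate 2) and SERPINB9 (−0.84 to −0.80 without shFOXK2 replicate 1) were lost, and SERPINB8, MMP13, MMP19 and SERPINI1 passed in some fits with a library left out. The lone library of a group was then assumed to vary like the others.

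Equal replicate numbers occur in both groups, and no label says what they share. Their deviations from the group means had a correlation of −0.113. With the replicate block 16 genes were lower and 3 higher, and of the pathway genes 31 were lower and 7 higher. With the numbers crossed the counts were 16, 3, 32 and 9. The block changed the call of SERPINI1 alone among the 32 genes tested. Depth limits the 33 genes not tested and the size of the fall of MMP7.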
